A study of Rattus norvegicus with 244 samples.

Results

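The myelin genes described here are 7 genes whose products build or maintain the myelin sheath: Mbp, Mobp, Mag, Mog, Cnp, Mal and Ugt8. They were taken by symbol from the 10969 genes with a single symbol on the arrays. Together they are measured by 17 of 26202 probe sets, and each gene is read from its brightest probe set by mean signal, with the others as a check. All 7 leading probe sets and 16 of the 17 probe sets passed the filter on low values. The exception was the dimmer of the pair of Ugt8 probe sets.

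Gene expression was measured in the raphe, a brainstem region with serotonin neurons whose axons descend to the cord, and in the somatomotor cortex, where corticospinal axons begin. Total RNA of 84 rat samples, 41 of raphe and 43 of cortex, was hybridised to 244 arrays of 3 types with different probe sets, called A, B and C here. Injured samples came from rats with a moderate spinal cord injury, 4 in each region at each of 6 times: 4 h and 24 h, then 7, 14 and 28 d, then 3 months. Sham samples came from rats with a laminectomy and no injury, 2 at each of these times, and naive samples from rats with no operation, 4 in each region. Mbp was read from type C, on which the naive raphe had 3 samples. The other 6 genes were read from type A, on which the raphe had 1 sham sample at 3 months and so 11 in all. The labels used here give no strain, sex, age, injury device or spinal level. They do not say that replicates are separate animals, so the p-values measure the spread between these samples, which may be technical. Injured raphe samples carry the source name Rat Raphe, while sham and naive raphe samples carry Rat Raphe Magno. A difference in dissection between those names, if there was one, cannot be told apart from the injury.

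Myelin is a membrane that oligodendrocytes wrap around axons in the brain and spinal cord, where it speeds the conduction of impulses and supports the axon. It is rich in cholesterol and in galactolipids and holds a small set of abundant proteins. Mbp (myelin basic protein) holds the inner faces of the membrane together, and Mobp is a small basic protein of the same compact myelin. Mag, a lectin-like adhesion protein, sits in the innermost wrap and faces the axon, and Mog lies on the outermost surface of the sheath. Cnp, an enzyme that splits 2',3'-cyclic nucleotides, keeps cytoplasmic channels in the sheath open. Mal is a proteolipid that takes part in sorting lipids and proteins to the membrane, and Ugt8 makes galactosylceramide, the main galactolipid of myelin. The brainstem holds many myelinated tracts, and the grey matter of the cortex fewer. Mag has also been studied in spinal cord trauma because it can restrain the growth of axons.

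In the rat genome build GRCr8, RefSeq places Mag at chr1:95275728-95291133, Ugt8 at chr2:216938884-217007167 and Mal at chr3:135317664-135341423. Mobp lies at chr8:128747117-128777238 and Cnp at chr10:86011504-86018063. Mbp lies at chr18:78130652-78241174 and Mog at chr20:1514110-1528716.

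The genes move together between the regions, and SOX10 is a transcription factor that drives myelin genes in oligodendrocytes, so the bases before each gene's start were searched for ACAAAG and its reverse complement CTTTGT, a core that SOX factors bind. In the RefSeq promoter windows, on both strands and with the 250 bases before the start taken from each, 5454 of 33469 windows held it, which is 16.3%. Of the 6 members with a window, Mobp, Mag and Cnp had it in bases that lie outside the gene, and Ugt8 and Mal had none in their 250 bases. Mbp has 2 windows, 1 of them with 1 match inside the gene, and neither is printed. The Mobp window held 8 matches, of which 7 lie in the 135 bases printed here, and only 2 windows of the 33469 held 8 or more. ACAATG with its reverse complement CATTGT was searched in the same way, and 11.1% of windows held it. The windows of Mobp, Mag, Cnp, Ugt8 and Mal held 0 matches to it, and 1 Mbp window held 2, inside the gene. A match describes these letters and does not show that a factor binds there. The upstream bases of the 3 genes, from RefSeq on GRCr8, are printed 5′ to 3′ on the strand of the gene, with each match in capitals. They cover chr8:128746982-128747116 on the plus strand for Mobp, chr1:95291134-95291294 on the minus strand for Mag and chr10:86011254-86011503 on the plus strand for Cnp.
Mobp: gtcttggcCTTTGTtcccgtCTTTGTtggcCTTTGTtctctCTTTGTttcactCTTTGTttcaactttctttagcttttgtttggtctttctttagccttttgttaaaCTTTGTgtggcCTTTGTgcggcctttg
Mag: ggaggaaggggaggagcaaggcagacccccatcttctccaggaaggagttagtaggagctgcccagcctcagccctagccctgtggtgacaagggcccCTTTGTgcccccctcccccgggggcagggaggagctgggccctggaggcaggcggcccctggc
Cnp: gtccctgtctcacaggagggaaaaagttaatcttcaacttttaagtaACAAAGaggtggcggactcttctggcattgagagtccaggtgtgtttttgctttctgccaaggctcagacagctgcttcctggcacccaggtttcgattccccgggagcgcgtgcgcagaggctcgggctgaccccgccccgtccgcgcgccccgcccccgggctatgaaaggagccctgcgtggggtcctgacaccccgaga

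The deposited values are intensity values that the authors had scaled, with a trimmed mean between 799.7 and 799.9 on every array. Differences below are of log2(intensity + 32), the number of arrays limits their precision, and the added 32 draws differences of dim probe sets towards 0. Mbp was among the brightest signals of its arrays, with a median rank of 2 among 8789 probe sets, and Mobp had a median rank of 75 among 8799. In bulk tissue, fewer oligodendrocytes and less myelin RNA per oligodendrocyte cannot be told apart.

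The tissue of 2 samples went against their labels. A region score set the naive cortex at 0 and the naive raphe at 1, from the 96, 100 and 99 probe sets of types A, B and C that differed most between them, with the 7 genes left out. Sham cortex replicate 1 at 3 months scored 0.712, 0.633 and 0.729 on types A, B and C, against -0.0412 to 0.0990 in the cortex samples outside the 5 doubted ones. Sham raphe replicate 1 at 3 months scored 0.0374 on type B and 0.0670 on type C, against 0.861 to 1.02 in the raphe samples outside the doubted ones. It has no type A array, so of the leading probe sets it touches that of Mbp alone. Both are used as labelled unless stated, and results that rest on them are given without them as well. A further 3 samples were doubted for quality. Injured raphe replicate 1 at 4 h had an actin 3′ to 5′ ratio of 29.1, 46.2 and 93.3 on types A, B and C, against 1.05 to 2.72 in the other raphe samples, a ratio that is higher in degraded or shortened RNA. In cortex, injured replicate 2 at 7 d and sham replicate 2 at 14 d had 5th percentiles of signal of 29.8 to 35.7 and of 44.8 to 66.1, against 6.40 to 26.1 in the others. The type A arrays of injured cortex replicates 1 and 2 at 24 h are described as 4 h, and the description of the 30 min raphe sample gives 3 min. The times in the titles were used.

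**Figure D1:**
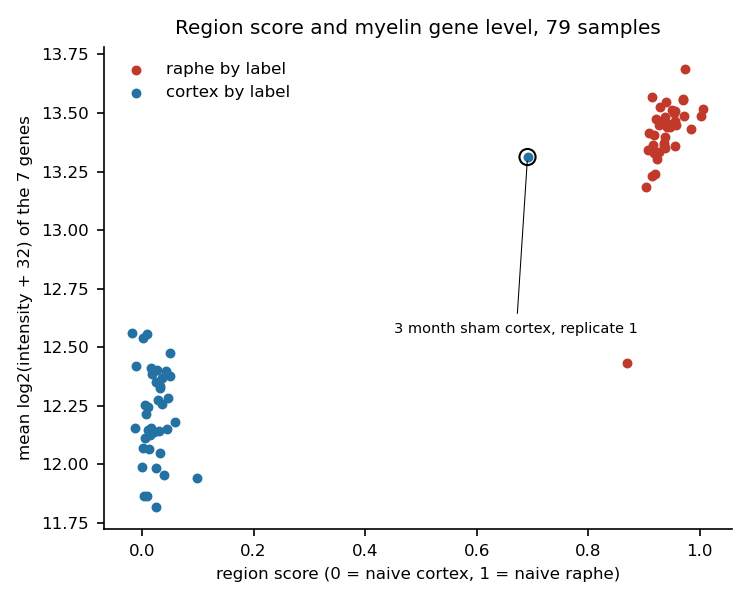
Mean log2(intensity + 32) of the 7 genes (vertical axis) against the region score (horizontal axis, 0 for naive cortex and 1 for naive raphe) in the 79 samples on all 3 array types, each point 1 sample coloured by its labelled region. The ringed sham cortex sample at 3 months lies apart from the other cortex samples in score and among the raphe samples in myelin gene level.

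All 7 myelin genes had a higher mean in the naive raphe than in the naive cortex, and 5 passed the test as higher. Ugt8 differed most, at 3.12-fold, followed by Mag, Cnp, Mog and Mobp at 2.48, 2.47, 2.35 and 1.74-fold. For every one of the 7 genes, each naive raphe sample lay above each naive cortex sample. How many of all probe sets separate the regions in this way was not counted.

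Among the compact myelin genes, Mbp had 83825, 97473 and 82272 in the naive raphe, against 62825, 61454, 60311 and 80681 in the naive cortex. The highest cortex sample came close to the raphe without reaching it, and the difference of 0.41 ± 0.17 (log2 ± SE, n = 3 and 4) did not pass the test (limma, adjusted p = 0.097). Mobp had 28867, 29668, 31218 and 24434 in the naive raphe, against 14183, 19971, 14364 and 17343 in the naive cortex. The regions did not overlap, and the difference was 0.80 ± 0.23 (n = 4 and 4, limma, adjusted p = 0.010).

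Of the adhesion and surface proteins, Mag had 11927, 10749, 10487 and 12987 in the naive raphe, against 4736, 4278, 3453 and 6487 in the naive cortex. Every raphe sample was well above every cortex sample, with a difference of 1.31 ± 0.20 (limma, adjusted p = 6.1e-07). Mog had 3558, 4078, 3866 and 3330 in the naive raphe, against 1962, 1712, 1076 and 1619 in the naive cortex. It too did not overlap, with a difference of 1.23 ± 0.19 (limma, adjusted p = 8.7e-07).

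The enzyme Cnp had 9018, 9586, 9362 and 9509 in the naive raphe, against 4191, 3879, 3053 and 4057 in the naive cortex. The raphe samples lay close together, and the difference was 1.31 ± 0.28 (limma, adjusted p = 0.00040). Ugt8, which makes the galactolipid, had 5080, 4323, 5530 and 4700 in the naive raphe, against 1905, 1983, 1130 and 1330 in the naive cortex. This was the widest gap of the 7, at 1.64 ± 0.23 (limma, adjusted p = 2.0e-07). The proteolipid Mal had 4017, 5708, 4674 and 4973 in the naive raphe, against 3790, 3884, 2723 and 3492 in the naive cortex. Its groups were narrowly apart, and the difference of 0.48 ± 0.21 did not pass the test (limma, adjusted p = 0.13).

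Over all 19453 probe sets tested in both regions, 14.2% passed in either direction in the naive samples and 6.65% passed as higher in the raphe. The median difference of the 7 genes was 1.23, and that of all probe sets was -0.00. The regions differ widely, so many genes pass beside these.

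The same direction held in operated rats, whose group means share no sample with the naive ones. All groups share 1 spread in the fit, so the p-values of these comparisons are not independent. In sham samples over the 6 times, all 7 genes were higher in the raphe than in the cortex and passed (limma, adjusted p from 5.4e-16 to 1.5e-05). The background was 32.7% in either direction and 15.7% higher. The difference was 1.74 ± 0.14 for Ugt8, 1.52 ± 0.17 for Cnp, 1.38 ± 0.14 for Mobp, 1.37 ± 0.11 for Mog and 1.28 ± 0.12 for Mag. It was smaller for Mal, at 0.73 ± 0.13, and for Mbp, at 0.48 ± 0.09 (fold 1.40). In injured samples all 7 were again higher in the raphe and passed (limma, adjusted p from 1.7e-25 to 1.2e-08), against a background of 48.2% in either direction and 24.3% higher. There the difference was 1.74 ± 0.10 for Ugt8, 1.50 ± 0.08 for Mog, 1.16 ± 0.08 for Mag, 1.14 ± 0.09 for Mobp, 1.32 ± 0.11 for Cnp, 0.75 ± 0.09 for Mal and 0.46 ± 0.06 for Mbp. The medians of the 7 genes were 1.37 in sham and 1.16 in injured samples, beside -0.02 and -0.01 over all probe sets. Without the pair of samples whose region is in doubt, 5, 7 and 7 genes passed in naive, sham and injured samples, against backgrounds of 14.7%, 34.4% and 48.3%, and the sham median was 1.46. Quantile normalization gives the top-ranked probe sets of an array nearly the same value on every array, so that it is no test of Mbp, whose difference in sham samples was then 0.08 (limma, adjusted p = 0.62).

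**Figure D2:**
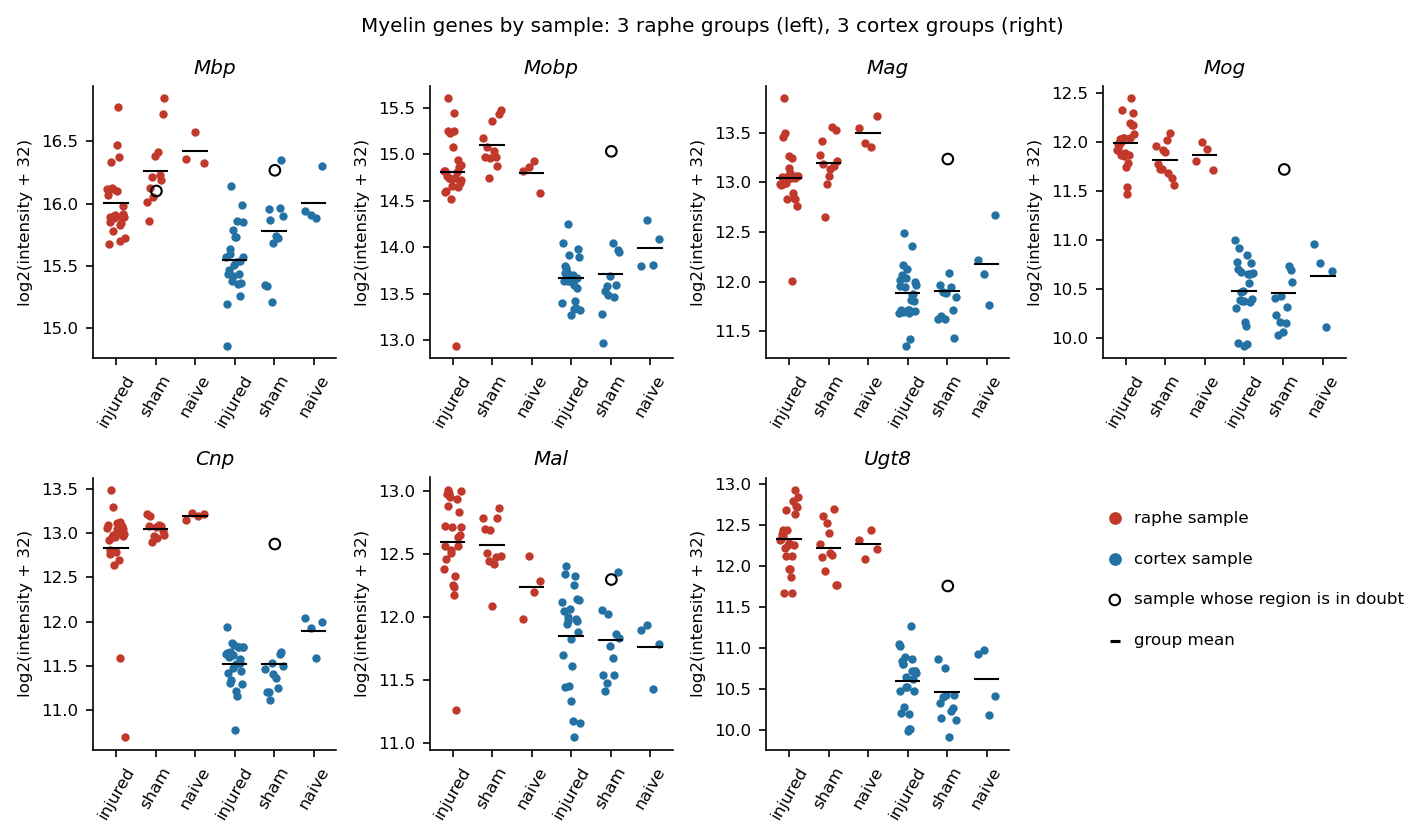
Log2(intensity + 32) of each gene (1 panel a gene) in every sample of injured, sham and naive raphe (left 3 columns) and of injured, sham and naive cortex (right 3 columns), with a bar at the group mean and rings on the samples whose region is in doubt. Mog and Ugt8 separate the regions once the ringed samples are set aside, while Mbp overlaps between them.

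How cleanly a single sample could be told apart by region differed among the genes. These counts include the sham samples at 30 min and 72 h. The share of all probe sets that separate the regions as fully was not counted, here or for the injured samples below. With the samples as labelled, 33 of 40 raphe samples lay above every cortex sample for Mog and 38 of 40 for Ugt8. Without the pair in doubt, all 40 did so for both genes, with all 42 cortex samples below. Mobp then had 39 of 40, Mag and Cnp 38 of 40, and Mal 30 of 40. Mbp, the brightest of the 7, overlapped most, with 9 of 38 raphe samples above every cortex sample.

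In injured samples the levels show the same order. Mog in injured raphe had a lowest value of 2816, a median of 4036 and a highest of 5543, against 941, 1392 and 2017 in injured cortex. Ugt8 in injured raphe had 3214, 5100 and 7777, against 979, 1588 and 2428 in injured cortex. Neither gene overlapped between the regions in the 24 and 24 injured samples. Mobp had 7823, 28205 and 49698 in injured raphe, against 9838, 12957 and 19389 in injured cortex, and the low raphe value was the 4 h sample with the high actin ratio. Mag had 4097, 8394 and 14693 in injured raphe, against 2587, 3714 and 5719 in injured cortex, with the same sample lowest. For both, 23 of 24 injured raphe samples were above all injured cortex samples. Cnp had 1625, 8072 and 11464 in injured raphe, against 1718, 3056 and 3891 in injured cortex, and 22 of 24 raphe samples were above all of the cortex. Mal had 2424, 6358 and 8208 in injured raphe, against 2083, 3973 and 5382 in injured cortex. Mbp had 52397, 61301 and 112201 in injured raphe, against 29665, 47385 and 72133 in injured cortex. These last 2 genes overlapped, with 18 and 4 of 24 raphe samples above all of the cortex.

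The check probe sets gave the same sign throughout. All 9 further probe sets of Mbp, Mobp, Mag and Mog that were tested were higher in the raphe in naive, sham and injured samples. The Mbp probe set on type A differed by 0.93, 1.10 and 0.67 in naive, sham and injured samples and did not pass in the naive ones (limma, adjusted p = 0.29). The one on type B differed by 0.77, 0.26 and 0.65 and did not pass in the sham ones (adjusted p = 0.15). The second Mog probe set differed by 0.70, 0.94 and 0.95, less than the leading one, and did not pass in naive samples (adjusted p = 0.20).

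**Figure D3:**
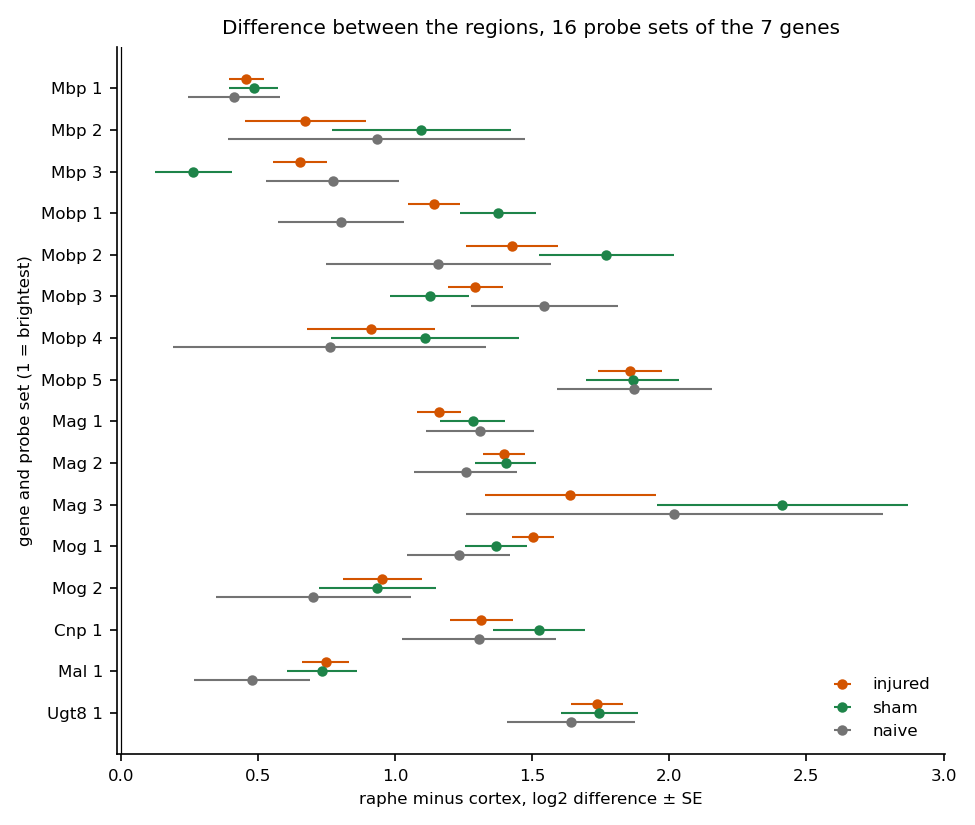
Raphe minus cortex difference in log2(intensity + 32) with its standard error (horizontal axis) for the 16 tested probe sets of the 7 genes (rows, numbered within a gene from the brightest), in injured, sham and naive samples. Every point is above 0, and the leading Mbp probe set lies between 0.41 and 0.48 in the 3 kinds of sample.

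The wider oligodendrocyte programme was higher in the raphe too. Of 31 other myelin and mature oligodendrocyte genes tested, 16 were higher and 1 lower in the naive raphe, 27 higher and none lower in the sham raphe, and 28 higher and 1 lower in the injured raphe, with median differences of 1.04, 1.13 and 1.23. Tppp3, a tubulin-binding protein, was higher by 3.89 ± 0.56 in naive samples, and Klk6, a protease of mature oligodendrocytes, by 2.59 ± 0.23. The Tppp3 probe set was at or below the 40th percentile of its array in 12 of 41 cortex samples. Hapln2, a link protein of the matrix at nodes, was higher by 1.49 ± 0.23, and the gap junction gene Gjb1 by 1.29 ± 0.21. Among 13 oligodendrocyte lineage transcription factors and precursor genes, 2 were higher in the naive raphe and none lower. They were Sox10 at 1.20 ± 0.39 and Myrf, the regulator that switches on myelin genes, at 0.95 ± 0.17. In injured samples 6 were higher and 2 lower, and Id2, an inhibitor of differentiation, was lower by 1.12. The precursor list had median differences of 0.12, -0.01 and 0.07 in naive, sham and injured samples, near that of all probe sets.

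Lipid genes partly followed. Of 24 cholesterol and fatty acid synthesis genes, 8 were higher in the naive raphe and none lower, 16 higher and 1 lower in sham, and 20 higher and 1 lower in injured samples. The fatty acid synthase Fasn was higher by 1.01 ± 0.15 in the naive raphe, the desaturase Scd by 1.26 and the elongase Elovl5 by 1.19. Of 10 sphingolipid synthesis and breakdown genes, 2 were higher in the naive raphe and none lower: Cers2, which makes very long chain ceramides, at 1.36, and the sphingomyelinase Smpd1 at 0.50. Of 10 axon-glia junction genes, 1 was higher in the naive raphe and 2 lower. Nrg1, an axonal signal to glia, was higher by 1.28, while Lingo1, a brake on myelination, differed by -1.92 and Cntnap1, of the paranodal junction, by -0.48. The Nrg1 probe set was at or below the 40th percentile of its array in 19 of 43 cortex samples.

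Lists for other cells and tissues moved between the regions as well. Of 13 forebrain cortex genes, 12 were lower in the raphe and none higher in each of the 3 kinds of sample (medians of -3.98, -3.23 and -3.69 in naive, sham and injured), and Itpka was at or below the 40th percentile of its array in 40 of 40 raphe samples. Of 13 brainstem genes, 11 were higher in the naive raphe and none lower, with a median of 1.68, and Sncg was that low in 41 of 43 cortex samples. Of 17 neuron genes, 5 were higher and 5 lower in naive samples, and of 17 astrocyte genes 4 higher and 1 lower. For the microglia and macrophage genes, 0 of 15 passed in naive samples (limma, 0 at an unadjusted p under 0.05), and for the choroid plexus and meninges genes 0 of 13 (3 at an unadjusted p under 0.05). Of 11 endothelial and blood cell genes, 3 were higher in the naive raphe and none lower, with the haemoglobin genes Hba-a1 at 1.09 and Hbb at 1.06. Among Schwann cell and peripheral nerve genes, 2 were higher and 1 lower of 5, with Pmp22 higher by 1.81. The probe set of Egr2 was at or below the 40th percentile of its array in 39 of 40 raphe and 4 of 43 cortex samples. Those of Pmp22 and Ngfr were that low in 0 of 40 raphe samples, that of Prx in 5 of 40 and that of Sox2 in 1 of 39. The summed intensity of the 7 members was 142206 to 162611 in the naive raphe and 86110 to 115009 in the naive cortex, and that of the astrocyte genes 254910 to 282516 and 178204 to 229896. The part of these other cells in the myelin difference was not tested.

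No raphe minus cortex difference in the injury effect passed the test in the 7 genes. Over the 6 times the raphe minus cortex difference in injured minus sham ran from -0.23 ± 0.17 for Mobp to 0.13 ± 0.14 for Mog. For Mbp it was -0.03 ± 0.11. The test passed 0 of 7 genes (limma), against a background of 0.0206%. At an unadjusted p of 0.05 there were 0 of the 7 genes and 1651 of 19453 probe sets. At single times 0 of 42 tests passed, against backgrounds of 0% at 4 h, 24 h and 28 d, 0.0154% at 7 d, 0.298% at 14 d and 0.941% at 3 months. The smallest unadjusted p-values were those of Mag, with 1.02 ± 0.39 at 3 months (limma, p = 0.012, adjusted p = 0.23) and -0.87 ± 0.34 at 4 h (p = 0.013, adjusted p = 0.39). Both rested in part on doubted samples. At 3 months the raphe had 1 sham sample on type A, and without the sham cortex sample in doubt the value was 0.45 ± 0.41 (p = 0.28). At 4 h it was -0.66 ± 0.30 (p = 0.030) without the 5 doubted samples.

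In the raphe, no myelin gene passed the test of injured against sham samples over the 6 times (limma, 0 of 7, against a background of 0.946%). An unadjusted p under 0.05 was found for 2 of the 7 genes and for 2820 of 18716 probe sets. Mbp had a lowest value of 52397, a median of 61301 and a highest of 112201 in 24 injured samples, against 59428, 75332 and 117775 in 12 sham samples. The groups overlapped, with 18 of 24 injured samples below the sham mean of their own time. The difference was -0.26 ± 0.07 (p = 0.0014, adjusted p = 0.075). It passed without the 5 doubted samples (-0.28, adjusted p = 0.025), without injured replicate 1 at 4 h (-0.25, adjusted p = 0.029) and without injured replicate 2 at 24 h (-0.27, adjusted p = 0.044), fits in which 4.73%, 6.24% and 1.34% of all probe sets passed. Of its check probe sets, that on type B went the other way, at 0.31 ± 0.11 (adjusted p = 0.14), and that on type A went the same way, at -0.48 ± 0.38. On type A injured replicate 1 at 4 h had 535, against 37568 to 48239 in the other 3 injured samples of that time, and without the 5 doubted samples the difference was -0.22 ± 0.12 (adjusted p = 0.28). Mog, on the outer surface of myelin, had 2816, 4036 and 5543 in injured samples, against 2992, 3467 and 4346 in 11 sham samples, with 17 of 24 injured samples above the sham mean of their time. The difference was 0.15 ± 0.07 (p = 0.043, adjusted p = 0.31). For the other 5 genes it ran from -0.29 ± 0.14 for Mobp to 0.12 for Ugt8. The median was -0.15 over the 7 genes and -0.00 over all 18716 probe sets tested in the raphe. None of the 13 other gene lists had a gene that passed over the 6 times, and the 31 other myelin genes had a median of 0.01 with 1 at an unadjusted p under 0.05.

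At single times, Mbp at 7 d was the 1 myelin gene that passed in the raphe. At 7 d 0.801% of all probe sets passed in either direction and 0.305% as lower. It had 64556, 61667, 60676 and 54199 in injured raphe, against 108216 and 117775 in sham raphe. All 4 injured samples were below both sham samples, which were the highest of all 12 sham raphe samples, and the injured values lay within the range of injured samples at other times. The difference was -0.91 ± 0.18 (limma, p = 1.9e-05, adjusted p = 0.011). On type A the Mbp probe set had 46957, 44607, 39262 and 47732 in injured raphe, against 85494 and 83843 in sham raphe. The groups overlapped on neither type C nor type A, though how many of all probe sets separate likewise was not counted. The difference on type A was -0.93 ± 0.89 (limma, adjusted p = 0.75). That error includes the spread of the injured 4 h samples, where replicate 1 had 535, and without the 5 doubted samples the difference was -0.93 ± 0.28 (adjusted p = 0.0495), in a fit where 4.71% of all probe sets passed at 7 d. On type B it had 7692, 8459, 6894 and 5597, against 7057 and 7133, a difference of -0.00 ± 0.26.

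Other bright probe sets were also lower in injured raphe at 7 d. Of the 20 other brightest probe sets of type C, a set looked at after the result was known, all 20 were lower in injured than in sham raphe at 7 d, by a median of -0.36 and from -1.02 to -0.05, with 1 of them below Mbp. On type A all 20 were lower too, with a median of -0.70. The part of this in the Mbp difference was not tested. Quantile normalization, which fixes values of this rank by construction, gave -0.10 (limma, adjusted p = 0.92). With 1 of the pair of 7 d sham samples left out, the difference was -0.97 (adjusted p = 0.053) without replicate 1 and -0.85 (adjusted p = 0.14) without replicate 2.

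**Figure D4:**
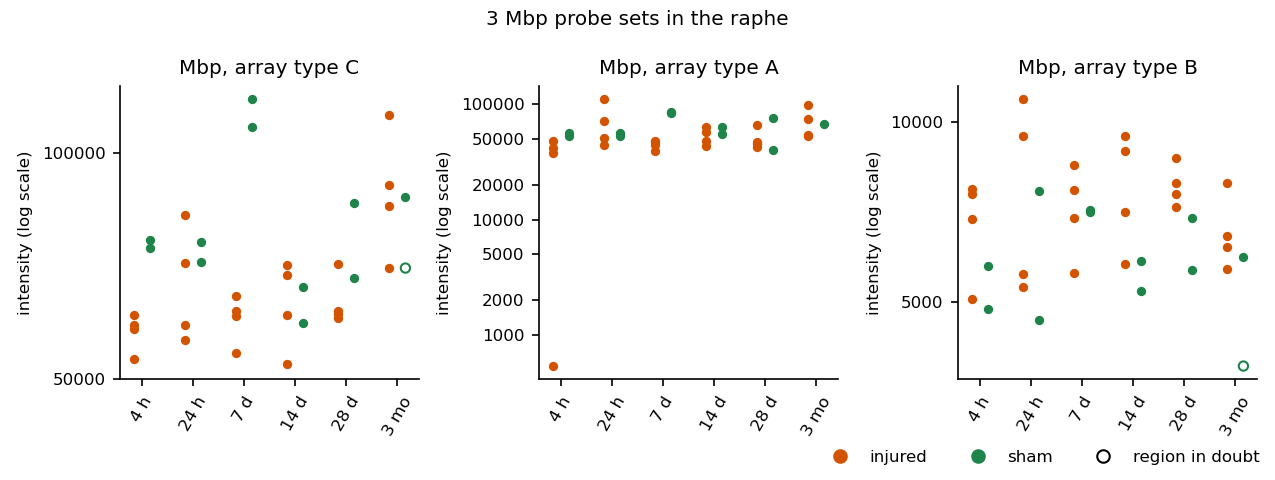
Intensity on a log scale (vertical axis) of the Mbp probe sets on types C, A and B (panels) in injured and sham raphe samples at each time, each point 1 sample. At 7 d the sham samples stand above the injured ones on types C and A, while on type B they lie among them.

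Ugt8 and Mog were on the other side at 7 d without passing. Ugt8 had 6314, 6766, 6724 and 7295 in injured raphe, against 3465 and 3452 in sham raphe. The groups did not overlap, though the share of all probe sets that separate likewise was not counted. The difference was 0.96 ± 0.26 (limma, p = 0.00079, adjusted p = 0.067). Mog had 4574, 4599, 4991 and 4302 in injured raphe, against 3135 and 2992 in sham raphe, again with no overlap, and differed by 0.58 ± 0.17 (p = 0.0015, adjusted p = 0.089). Both passed in the fit without the 5 doubted samples, at adjusted p = 0.0084 for Ugt8 and 0.017 for Mog, but there 4.71% of all probe sets passed, against 0.801% with all samples. The second Mog probe set differed by 0.01 ± 0.55.

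Of the others at 7 d, Mobp had 29814, 26323, 26971 and 30291 in injured raphe, against 44073 and 45416 in sham raphe. The groups did not overlap, though the share of all probe sets that separate in this way was not counted. The difference of -0.66 ± 0.34 did not pass (limma, adjusted p = 0.42). Cnp had 8421, 7981, 8098 and 1625 in injured raphe, against 8318 and 8029 in sham raphe, so that replicate 4 alone set its difference of -0.58 ± 0.41. Mag differed by -0.39 and Mal by 0.12. The median of the 7 genes was -0.39, and that of all probe sets 0.00.

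Beside these, 0 of 31 other myelin and mature oligodendrocyte genes passed at 7 d (limma, 1 at an unadjusted p under 0.05, median 0.01), and their summed intensity was 159991, 153642, 155369 and 164302 in injured raphe, against 155096 and 164055 in sham raphe. The lineage regulator Myrf was higher by 0.74 ± 0.18 (adjusted p = 0.042), the 1 gene of 13 that passed in its list. The summed intensity of the endothelial and blood cell genes was 55051, 62442, 55105 and 49290 in injured raphe, against 97709 and 106434 in sham raphe. Of 10 genes of that list, the haemoglobin gene Hba-a1 passed, at -1.13 ± 0.25 (adjusted p = 0.021). The part of blood in the 7 d samples was not tested.

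At the other times 0 of 7 genes passed in the raphe, where the background was 0.15% at 4 h, 0.00534% at 24 h, 0.0374% at 14 d, 0% at 28 d and 0.614% at 3 months. Unadjusted p-values under 0.05 were found for 2 genes at 4 h, 1 at 24 h and 0 at 14 d, 28 d and 3 months. Over all 18716 probe sets, 2557, 816, 1207, 1273 and 2008 had an unadjusted p that low at these times, in order. Mag had 4097, 7572, 7289 and 7264 in injured raphe at 4 h, against 12054 and 9172 in sham raphe. All 4 were below both sham samples, a separation that was not counted over all probe sets. The lowest was the sample with the high actin ratio. The difference was -0.72 ± 0.22 (limma, p = 0.0029, adjusted p = 0.19), and -0.51 ± 0.19 without the 5 doubted samples (adjusted p = 0.19). At 24 h Mag differed by 0.54 in the other direction (p = 0.022, adjusted p = 1). At 3 months the 7 genes had a median difference of -0.01.

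**Figure D5:**
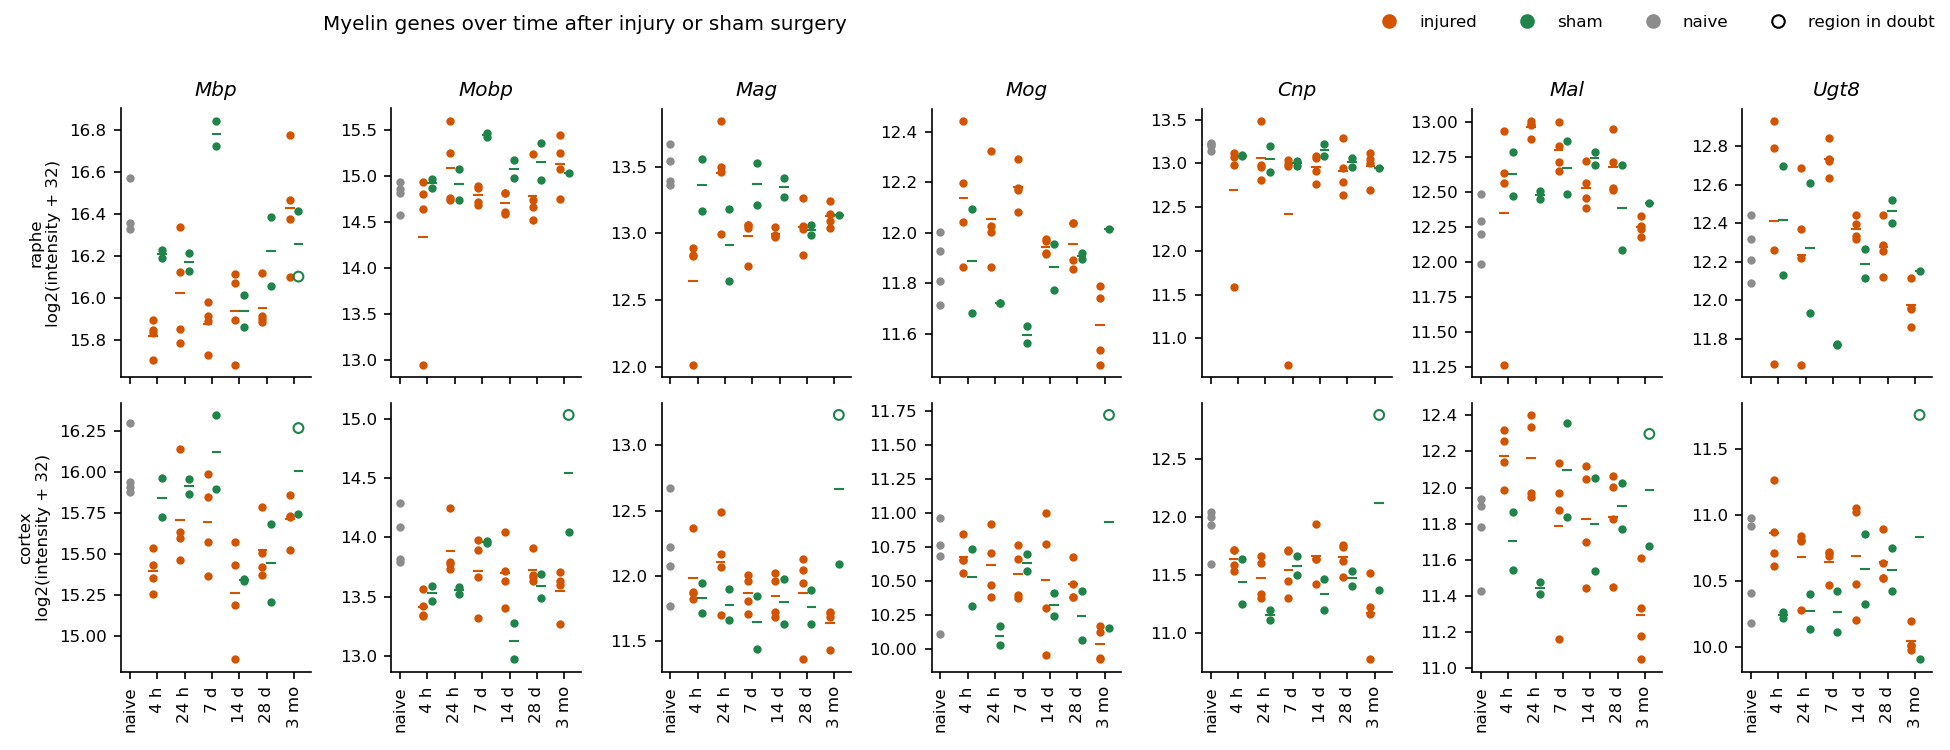
Log2(intensity + 32) of each gene (columns) in raphe (top) and cortex (bottom), with naive samples at the left and injured and sham samples at each time, bars at group means and open circles for samples whose region is in doubt. Injured and sham samples of most genes and times overlap, the 7 d sham raphe stands high in Mbp, and the open circle stands high in the cortex at 3 months.

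In the cortex, 0 of 7 genes passed over the 6 times (limma, background 0.133%). An unadjusted p under 0.05 was found for 1 of the 7 genes and for 2140 of 18769 probe sets. Mbp had a lowest value of 29665, a median of 47385 and a highest of 72133 in 24 injured samples, against 37816, 57196 and 83375 in 12 sham samples. The groups overlapped, with 19 of 24 injured samples below the sham mean of their time, and the difference was -0.23 ± 0.09 (p = 0.012, adjusted p = 0.29). The other 6 genes lay between -0.05 and 0.13. The median of the 7 was 0.01, beside -0.00 over 18769 probe sets. Among the other lists only Aif1, a gene of microglia and macrophages, passed, at 0.63 ± 0.10 (adjusted p = 0.0058).

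At 3 months, 3 myelin genes were lower in injured than in sham cortex as the samples are labelled. The calls were made with the sham sample in doubt included, and the size of the differences depended on it. The background there was 2.47% in either direction and 0.943% lower. Mobp had 9838, 12643, 13316 and 12337 in injured cortex, against 33465 and 16894 in sham cortex. Mag had 3323, 3257, 3334 and 2719, against 9607 and 4331, and Cnp had 1718, 2907, 2356 and 2261, against 7488 and 2609. In each gene the first sham value, that of the sample with a region score between the ranges of cortex and raphe, was far above the second. The differences were -0.99 ± 0.22 for Mobp, -1.03 ± 0.26 for Mag and -0.95 ± 0.25 for Cnp (limma, adjusted p = 0.014, 0.031 and 0.038). Without that sample they were -0.50, -0.46 and -0.20. Only the other sham sample was then left, so that fit cannot decide whether these genes differ. All 4 injured samples lay below that remaining sham sample in Mobp and Mag, and 3 of 4 in Cnp. How many of all probe sets do likewise was not counted. Without the other sham sample instead, the differences were -1.48, -1.60 and -1.71.

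The same sample was far from the other sham sample in every list that marks the regions. The summed intensity of the other myelin and mature oligodendrocyte genes at 3 months was 63032, 66516, 61840 and 62392 in injured cortex, against 140802 and 71908 in sham cortex. That of the forebrain cortex genes was 130558, 120345, 115359 and 136171 in injured cortex, against 56212 and 146591. That of the brainstem genes was 3379, 2925, 3767 and 3363 in injured cortex, against 17374 and 2902. Of the 31 other myelin genes, 8 were lower in injured cortex with this sample included, among them Tppp3 at -2.85 and Ndrg1 at -1.42. Without it, when only the other sham sample was left, the median difference of the 31 genes was -0.25. Tppp3 was then at -0.67 ± 0.56 and Ndrg1 at -0.65 ± 0.27.

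At the earlier times no myelin gene passed in the cortex, with backgrounds of 0.016% at 4 h, 0.0426% at 24 h, 0.368% at 7 d, 1.81% at 14 d and 0% at 28 d. Over all 18769 probe sets, 1485, 1265, 1860, 3546 and 597 had an unadjusted p under 0.05 at these times, in order. Among the 7 genes there was 1 at each of 4 h, 24 h, 7 d and 14 d and 0 at 28 d. The smallest unadjusted p was that of Mal at 24 h, with 0.72 ± 0.25 (limma, p = 0.0072, adjusted p = 0.46). The next was that of Mobp at 14 d, with 0.58 (p = 0.012, adjusted p = 0.15). The 14 d sham group holds the sample with a raised 5th percentile.

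Against naive samples, no myelin gene passed in injured or sham animals of either region (limma). The injured and sham comparisons share the naive samples. In the raphe, injured against naive samples gave 0 of 7 calls, against a background of 3.05%. At an unadjusted p under 0.05 there were 3 of the 7 genes and 3171 of 18716 probe sets. Mbp differed by -0.41 ± 0.13, Mag by -0.45 ± 0.14 (adjusted p = 0.069 for both) and Mal by 0.35 ± 0.17 (adjusted p = 0.27). Sham against naive raphe gave 0 of 7 calls, against 1.35%. At an unadjusted p under 0.05 there were 0 of the 7 genes and 2737 of 18716 probe sets. In the cortex, injured against naive samples gave 0 of 7 calls, against 2%. At an unadjusted p under 0.05 there were 3 of the 7 genes and 3170 of 18769 probe sets. Mbp differed by -0.46 ± 0.13 (adjusted p = 0.058), Mobp by -0.33 and Cnp by -0.37. Sham against naive cortex gave 0 of 7 calls, against 0.49%. At an unadjusted p under 0.05 there were 1 of the 7 genes and 2597 of 18769 probe sets. The gene was Cnp, at -0.37 (limma, p = 0.032, adjusted p = 0.31). In the wider list, 2 of 31 other myelin genes were lower in injured than in naive cortex, Plekhb1 at -0.56 and Bin1 at -0.40.

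Over the 6 times within injured samples, 0 of 7 genes passed the limma F test in either region. The background was 0.486% in the raphe, and 3420 of 18716 probe sets had an unadjusted p under 0.05. Of the 7 genes, 5 had one. They were Mbp (p = 0.0036, adjusted p = 0.12), Mag (p = 0.0057, adjusted p = 0.14), Mog (p = 0.0061, adjusted p = 0.14), Mal (p = 0.025) and Ugt8 (p = 0.035). In the cortex the background was 1.1%, and 2914 of 18769 probe sets had an unadjusted p under 0.05. Of the 7 genes Mal alone had one (limma F test, p = 0.0017, adjusted p = 0.085). In injured raphe, Ugt8 had 3225, 7059, 4881 and 7777 at 4 h, 5257, 3214, 4743 and 6551 at 24 h, 6314, 6766, 6724 and 7295 at 7 d, 5071, 5128, 5350 and 5525 at 14 d, 4420, 5544, 4851 and 4962 at 28 d, and 3958, 3946, 3685 and 4412 at 3 months. The 4 h and 24 h samples together spanned the whole range of the later times.

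How the 7 genes varied with each other across samples is given as a description, over Pearson correlations of log2 values from the same arrays and scaling. Among 38 raphe samples, the 21 pairs of genes ran from -0.62 to 0.72 with a median of 0.37. Without the injured 4 h sample with the high actin ratio the median was -0.04, and the pairs ran from -0.66 to 0.74. In those 37 samples Mog and Ugt8 went together (r = 0.74), as did Mbp and Mobp (0.66), while Mbp and Ugt8 (-0.66), Mbp and Mog (-0.65) and Mobp and Ugt8 (-0.61) went apart. After quantile normalization Mog and Ugt8 had 0.74, but Mbp and Ugt8 had -0.08, Mbp and Mog -0.01, Mobp and Ugt8 -0.34 and Mbp and Mobp -0.03. This scaling leaves the top-ranked probe sets little spread, so its correlations for Mbp rest on small differences. Some genes also moved with array quality: without the doubted samples, the correlation with the log2 5th percentile of the array was -0.60 for Mal, -0.49 for Mog, -0.38 for Ugt8 and 0.30 for Mbp in the raphe, and the part of this in the pairs was not tested.

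In the cortex the 21 pairs ran from -0.15 to 0.84 with a median of 0.53 over 41 samples. Without the sham sample in doubt they ran from -0.35 to 0.79 with a median of 0.31. The closest pairs among those 40 samples were Mog and Ugt8 (0.79), Mog and Cnp (0.73) and Mog and Mal (0.73). The 41 samples include the sham sample at 72 h. Without the 5 doubted samples, Mbp had -0.19 with Mal, -0.04 with Mog, -0.39 with Ugt8 and 0.42 with Mobp. After quantile normalization these were 0.54, 0.38, 0.22 and 0.15. Without the doubted samples, the correlation with the 5th percentile was 0.50 for Mbp and -0.52 for Ugt8, and that with the actin ratio was -0.55 for Mag, whose part in the pairs was not tested either.

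The genes most like the 7 in pattern were ranked by their correlation with the mean of the 7 genes among 10962 other genes. In 38 raphe samples they were Lamp5 (0.92), Vamp1 (0.91), Nefl (0.90), Mrps7 (0.90) and Gabarapl1 (0.89), none of them in a myelin or oligodendrocyte list. Without the injured 4 h sample they were Rhou (0.71), Pnlip (0.69), Acsbg1 (0.68), Dnm2 (0.68) and Lamp5 (0.66), so the first ranking rested on that sample. In 41 cortex samples they were Apod (0.78), Litaf (0.78), Pacs2 (0.76), Plekhb1 (0.75) and Myrf (0.75). Without the sham sample in doubt they were Myrf (0.71), Litaf (0.65), C1qb (0.63), Map7 (0.63) and Pcp4 (0.62). Myrf, the regulator of myelin genes, was among the 5 nearest in the cortex in both rankings.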

How the data were processed

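RNA of rat raphe and somatomotor cortex was measured on arrays. The deposited files hold intensity values, 1 linear signal for each probe set. The authors had scaled each array to a common mean, as the values show. The software and version behind them are not given in the sources used here. Array medians ran from 185.8 to 410.5. Control probe sets were left out. Probe sets were named through the platform annotation: of 26202, 18178 had 1 symbol, 391 several and 7633 none.

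Groups came from titles and descriptions. The deposited scaling was kept, 32 was added and the log2 taken. Probe sets above their array's 40th percentile on 4 arrays or more were tested: 18716 in the raphe, 18769 in the cortex, 19453 with both regions. The fit of group means used limma (version 3.58.1, R 4.3.3) within each array type over all groups of a region, or of both, sharing 1 spread. Contrasts weight the 6 times equally, tests are two-sided, and Benjamini-Hochberg adjustment ran over the 3 array types together with a threshold of 0.05. The scripts were tested on simulated data.

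The 7 members, the 14 gene lists (the members among them) and the rules on doubted samples were chosen with earlier results of these data known. Named genes are the members and, in each other list, genes with the smallest p among those that passed. Genes of these lists without a probe set are not analysed here. Alternatives were quantile normalization, the filter, the added value, array weights, a replicate block, adjustment within array types, the second brightest probe set, and fits without each replicate, the samples in doubt and the arrays of conflicting labels. The correlations, the Mbp check probe sets and the other myelin genes at 3 months without doubted samples and the brightest probe sets at 7 d were looked at after seeing the data. Replicate numbers did not pair injured with sham samples, so the main fit has no block. Of 70 correlations between same-numbered injured and sham samples of a region and time, 3 were above 0.1, with a median of -0.01. Whether same-numbered raphe and cortex samples came from the same rats was not checked. The fit of both regions treats them as independent.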

Additional observations from a re-analysis of the deposited data

Results flagged for a closer look

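In groups of 4 or more samples, the highest or lowest sample lay far from the rest, by Dixon's 95% limit, in 14 of 97 groups of a gene, region, treatment and time. The limit is set to flag about 1 in 20 groups by chance. The 7 genes were read on shared arrays, so the groups are not independent, and an excess over chance was not tested. In injured raphe, replicate 1 at 4 h, the sample with the high actin ratio, was lowest in Mobp at 7823 (others 25563 to 31291), in Mag at 4097 (others 7264 to 7572) and in Cnp at 3059 (others 8091 to 8885). At 7 d replicate 4 had 1625 in Cnp (others 7981 to 8421) and replicate 3 had 6902 in Mag (others 8385 to 8525). Replicate 3 at 14 d had 8446 in Mag (others 8019 to 8081), and replicate 1 at 28 d had 71141 in Mbp (others 60368 to 61604).

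In injured cortex, replicate 4 at 24 h had 19389 in Mobp (others 13613 to 14154) and 1211 in Ugt8 (others 1757 to 1804). Replicate 2 at 4 h had 5234 in Mag (others 3577 to 3729), and replicate 1 at 7 d had 1385 in Ugt8 (others 1616 to 1655). At 3 months replicate 4 had 2719 in Mag (others 3257 to 3334) and replicate 2 had 1141 in Ugt8 (others 979 to 1001). In naive cortex, replicate 4 had 80681 in Mbp (others 60311 to 62825).

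Sham samples at 30 min and 72 h, which have no injured counterpart, entered no test between groups but are in the counts of overlap between regions and, where their arrays allow, in the correlations. The single raphe sham sample titled 30 min, whose description gives 3 min, lay above every naive raphe sample in Mobp at 37061 (naive up to 31218), in Cnp at 10351 (up to 9586), in Mal at 7222 (up to 5708) and in Ugt8 at 6016 (up to 5530). The first cortex sham sample at 30 min had 4425 in Mal (naive up to 3884).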

How the results depend on the processing

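Between the regions, 5 of 7 genes passed in naive samples, 7 with array weights and 6 without the 5 doubted samples (19.7% and 20.5% of all probe sets passed, against 14.2%), 7 in sham samples, 6 with quantile normalization, and 7 in injured samples under every alternative that reads all 7 genes. Array weights and the fit without the 5 doubted samples raised the calls over all probe sets as well. For injured against sham raphe over the 6 times, both gave 1 call in place of 0, while the share of all probe sets that passed was 8.22% with weights and 4.73% without those samples, against 0.946%. At single times in the raphe they gave 4 and 3 in place of 1, all at 7 d, with shares of 5.7% and 4.71%, against 0.801%. For injured against naive raphe both gave 3 in place of 0, with shares of 9.02% and 11.2%, against 3.05%, and for the time course of injured raphe 4 and 3 in place of 0, with shares of 6.04% and 4.4%, against 0.486%. At single times in the cortex they gave 1 and 0 in place of 3, with shares of 0.288% and 0.184% at 3 months, against 2.47%. For injured against naive cortex both gave 1 in place of 0, with shares of 6.09% and 4.07%, against 2%, and weights gave 1 for the time course of injured cortex, with a share of 8.17%, against 1.1%. Leaving out the pair whose region is in doubt gave 0 at single times in the cortex. Quantile normalization gave 1 at single times in the cortex and 0 in the raphe, where the lost gene was Mbp, whose value this scaling fixes by its rank. The filter at the 60th percentile gave 2 for injured against naive raphe and 1 for injured against naive cortex. With the second brightest probe set, Mbp did not pass at 7 d, so 0 genes were called. The replicate block, whose numbers did not pair injured with sham samples, gave 1 for the time course of injured cortex. It left Mbp at 7 d at -0.89 (limma, adjusted p = 0.023) and took Cnp in the cortex at 3 months to -0.94 (adjusted p = 0.058).

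With 1 replicate left out, the calls ran from 5 to 6 between naive regions, from 7 to 7 between sham and between injured regions, and were 0 for the difference between regions in the injury effect. In the raphe they ran from 0 to 1 over the 6 times, 0 to 3 at single times, 0 to 3 against naive samples and 0 to 3 for the time course. In the cortex they were 0 over the 6 times and ran from 0 to 6 at single times, 0 to 1 against naive samples and 0 to 1 for the time course. They were 0 for sham against naive samples in both. The shares of all probe sets moved too, from 0.412% to 6.24% over the 6 times in the raphe, 0.247% to 4.19% at 7 d, 1.69% to 10.2% against naive raphe, 0.198% to 3.76% for the raphe time course and 0.118% to 8.49% in the cortex at 3 months. The samples that moved them were injured raphe replicate 1 at 4 h, replicate 2 at 24 h and replicate 3 at 3 months, both sham raphe samples at 7 d, both sham cortex samples at 3 months, and injured cortex replicate 4 at 3 months, replicate 4 at 24 h, replicate 2 at 28 d and replicates 2 and 4 at 7 d. Over 82 results of single genes, 3096 of 3156 alternative values kept their call, 25 lost it, 35 gained it and 0 changed sign where called. Values that kept their call include those of results that were never called. Apart from fits without 1 replicate, the call of Mbp in the raphe at 7 d was lost in 2 of 11 alternatives. In the cortex at 3 months Mobp lost its call in 3 of 12, Mag in 4 of 12 and Cnp in 5 of 11. With 2 sham samples at each time, small differences could not be shown.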
